A study of Mus musculus with 10 samples.

Results

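Calcineurin, NFAT and RCAN genes were described in cardiomyocyte RNA from infarcted mouse hearts. The members were chosen by name: Nfatc1, Nfatc2, Nfatc3 and Nfatc4 (the calcium-regulated NFAT transcription factors), Ppp3ca and Ppp3cb (catalytic subunits of calcineurin), Ppp3r1 (its regulatory subunit), and Rcan1 and Rcan2 (calcineurin-binding regulators). These are 9 genes of the 51789 counted, and all 9 were among the 15232 genes tested. RNA-seq libraries came from 5 TgGRK5-MI mice, transgenic mice that overexpress the kinase GRK5 in cardiomyocytes, and from 5 NLC-MI mice, their non-transgenic littermate controls. Both groups had undergone permanent ligation of the left coronary artery to induce myocardial infarction (MI), and cardiomyocytes were isolated on day 4. The comparison is therefore of the transgene within infarcted hearts, and no sham-operated libraries were analysed here. The promoter of the transgene and the strain are not given in the sources used here, mice of the study were 8 to 12 weeks old at surgery, and the labels give neither age nor sex. RNA of Y-linked genes exceeded that of Xist in every library, the pattern of male mice.

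Calcineurin is a calcium- and calmodulin-dependent phosphatase. It removes phosphates from NFAT factors, which then enter the nucleus and activate genes together with partners such as GATA4, MEF2 and AP-1. Kinases including GSK3 and DYRK1A return NFAT to the cytoplasm, and RCAN proteins bind calcineurin and modulate its activity. The pathway is known for driving cardiac hypertrophy. Because NFAT activity is set by phosphorylation and location, the amount of NFAT mRNA is not a measure of it, whereas transcription from an internal start of Rcan1 is a widely used readout of calcineurin-NFAT activity.

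Libraries held 7968779 to 23381527 counts, and 3 counts corresponded to 0.121 to 0.393 CPM, counts relative to a library size scaled with edgeR's TMM factors. Grk5 was at 60.4 ± 9.50 CPM (SD, n = 5) in the NLC-MI libraries and 1222 ± 472 CPM (SD, n = 5) in TgGRK5-MI, in the direction that the labels give. Cardiomyocyte markers were abundant, and the sum of 8 of them ranged from 37270 to 107900 CPM in the NLC-MI libraries and from 37990 to 78340 CPM in TgGRK5-MI. The RNA also held markers of other cells. The 8 fibroblast markers summed to 4031 to 24100 CPM in the NLC-MI libraries and 4198 to 24770 CPM in TgGRK5-MI, the 8 macrophage markers to 572 to 1818 CPM and 982 to 2028 CPM, and the 8 endothelial markers to 943 to 1622 CPM and 830 to 1698 CPM. The 3 highest fibroblast sums, in NLC-MI replicates 1 and 2 and TgGRK5-MI replicate 2, stood apart from the rest, and results that touch on them are given with and without these libraries. In bulk RNA, fewer cells of a type cannot be told apart from less RNA per cell.

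The member transcripts spanned a wide range of abundance and had a stable order of roles. To compare levels between genes, CPM was divided by the length of all annotated exons in kilobases (kb). Rcan2 (123.8 ± 44.4 CPM per kb, SD, n = 10) and Rcan1 (111.1 ± 33.0 CPM per kb) were highest. Rcan2 exceeded Rcan1 in 5 of 10 libraries, with a ratio from 0.742 to 3.38, so the pair could not be ordered. Ppp3r1 followed at 23.8 ± 2.11 CPM per kb, below Rcan1 in 10 of 10 libraries. The catalytic subunits came next, Ppp3ca at 9.17 ± 2.25 and Ppp3cb at 8.06 ± 0.981 CPM per kb, and Ppp3ca was the higher of them in 7 of 10 libraries. All NFAT factors were lower. Nfatc1 was at 3.40 ± 0.628 and Nfatc3 at 3.13 ± 0.384 CPM per kb, with Nfatc1 higher in 8 of 10 libraries. Nfatc4 (1.602 ± 1.06 CPM per kb) was below Nfatc3 in 10 of 10 libraries, and it was above Nfatc2 (1.42 ± 0.408 CPM per kb) in 5 of 10. Length normalization assumes that all annotated exons are used, and the members have 2 to 11 annotated transcripts each.

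**Figure D1:**
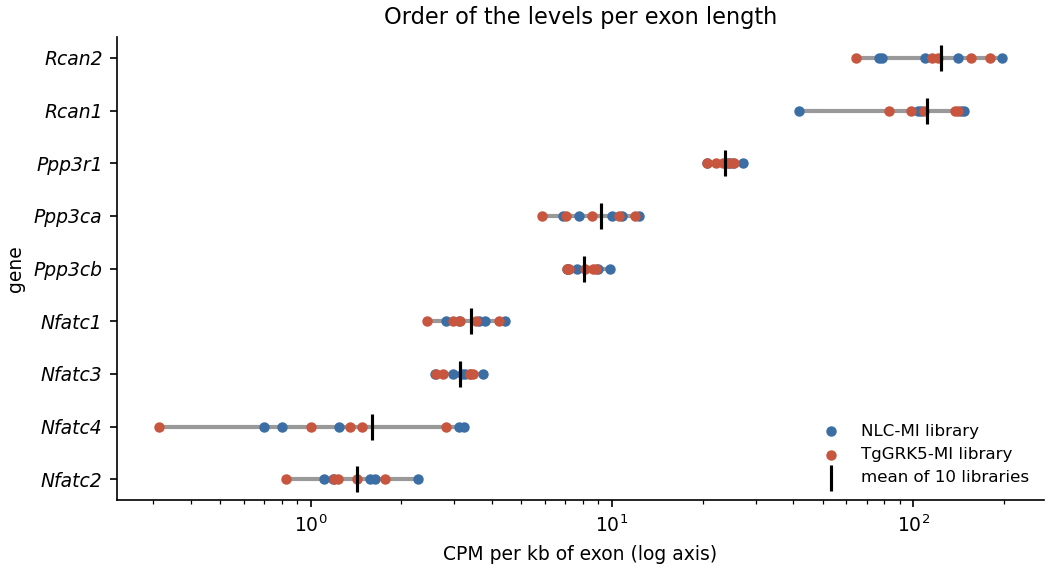
Level of each calcineurin, NFAT and RCAN gene (y axis) per kb of exon (x axis, CPM per kb, log axis) in the 5 NLC-MI and 5 TgGRK5-MI libraries, 1 point per library, with a grey line over the range and a black tick at the mean of the 10. RCAN genes lie highest, the calcineurin subunits in the middle and the NFAT factors lowest, and the groups overlap for each gene.

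No difference between TgGRK5-MI and NLC-MI was detected for any of the 9 members. In edgeR's quasi-likelihood test 0 of 9 had an adjusted p under 0.10, a threshold that 0.0788% of the genes tested passed (0.0525% higher and 0.0263% lower in TgGRK5-MI). Likewise 0 of 9 had an unadjusted p under 0.05, which 3.85% of the genes passed (1.77% higher and 2.08% lower). DESeq2 called 0 of 9 by either rule, beside 0.397% of the genes with an adjusted p and 2.97% of those with an unadjusted p, and limma-voom also called 0 of 9. The lowest unadjusted p was 0.283 (edgeR, Nfatc2, adjusted p = 1). The groups overlapped for all 9 members, while 1.0% of the genes tested had groups that did not overlap. When the group labels were exchanged in every possible way (exact permutation, two-sided), the lowest p of a member was 0.365, where 0.00794 is the smallest this design allows. The log2 fold change (TgGRK5-MI over NLC-MI) was positive for 2 members and negative for 7, with a median of -0.07 against 0.00 over all genes tested. A missed threshold does not show that levels were alike, so the intervals matter here. The 95% interval of the log2 fold change lay within -1 and 1 for 8 of 9 members, so a 2-fold difference in either direction was outside it, as it was for 75.9% of the genes tested. Nfatc4 was the exception.

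**Figure D2:**
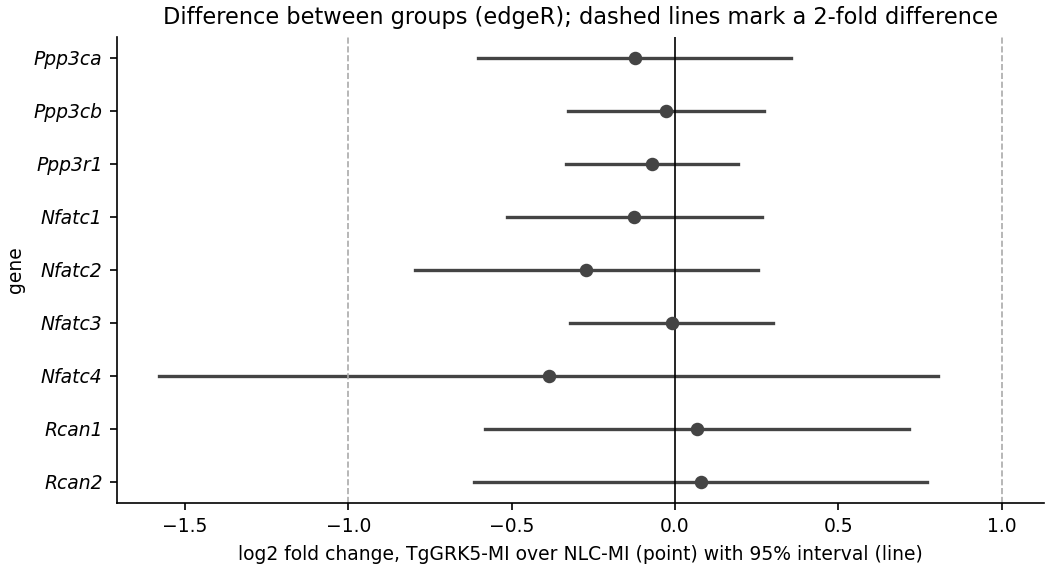
Log2 fold change of each member, TgGRK5-MI over NLC-MI (x axis), with the 95% interval from edgeR's quasi-likelihood fit as a line and dashed lines at a 2-fold difference. All 9 intervals span 0, and that of Nfatc4, from -1.58 to 0.80, is the widest.

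The catalytic subunits of calcineurin had close levels in the groups. Ppp3ca (ENSMUSG00000028161, GRCm38 chr3:136670124-136937727, plus strand), which encodes the alpha catalytic subunit, was measured at 99.95, 77.6, 122.7, 68.9 and 108.1 CPM in NLC-MI replicates 1 to 5 and at 85.3, 70.4, 105.1, 118.8 and 58.6 CPM in TgGRK5-MI replicates 1 to 5. The lowest library was transgenic and the highest a control, and the ranges overlapped over most of their length. The means were 95.4 ± 22.1 and 87.7 ± 24.6 CPM (SD over 5 libraries each), and the log2 fold change was -0.12 (standard error 0.22, 95% interval -0.60 to 0.36, edgeR unadjusted p = 0.585). Ppp3cb (ENSMUSG00000021816, GRCm38 chr14:20499364-20546573, minus strand), the beta catalytic subunit, varied less, from 62.4 to 86.6 CPM in the NLC-MI libraries and from 62.3 to 78.1 CPM in TgGRK5-MI. Its means were 71.7 ± 10.7 and 70.3 ± 7.19 CPM, with a log2 fold change of -0.03 (standard error 0.14, 95% interval -0.33 to 0.27, edgeR unadjusted p = 0.838). The balance of these subunits was likewise close. Ppp3ca made up 53.7 ± 2.99% of the per-kb sum of both in NLC-MI and 51.7 ± 4.87% in TgGRK5-MI (exact two-sided permutation test, p = 0.460, 0.897 adjusted over the 6 shares tested). No 50-base stretch of exon is shared between Ppp3ca and Ppp3cb in the annotation, so their counts can be separated.

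Ppp3r1 (ENSMUSG00000033953, GRCm38 chr11:17159263-17200375, plus strand) encodes the calcium-binding regulatory subunit B that both catalytic subunits need. It was the steadiest member, at 77.8, 66.8, 87.5, 79.7 and 81.2 CPM in the NLC-MI libraries and 78.7, 71.2, 82.1, 75.6 and 66.5 CPM in TgGRK5-MI. Apart from NLC-MI replicate 3, all libraries lay in the same band. The log2 fold change was -0.07 (standard error 0.12, 95% interval -0.33 to 0.19, edgeR unadjusted p = 0.569). Part of this count is uncertain, since 462 exon bases of Ppp3r1 also belong to Wdr92 on the same strand and 413 of its 3177 50-base stretches occur in other genes. Wdr92 itself was at 11.9 ± 1.19 and 12.4 ± 2.47 CPM.

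**Figure D3:**
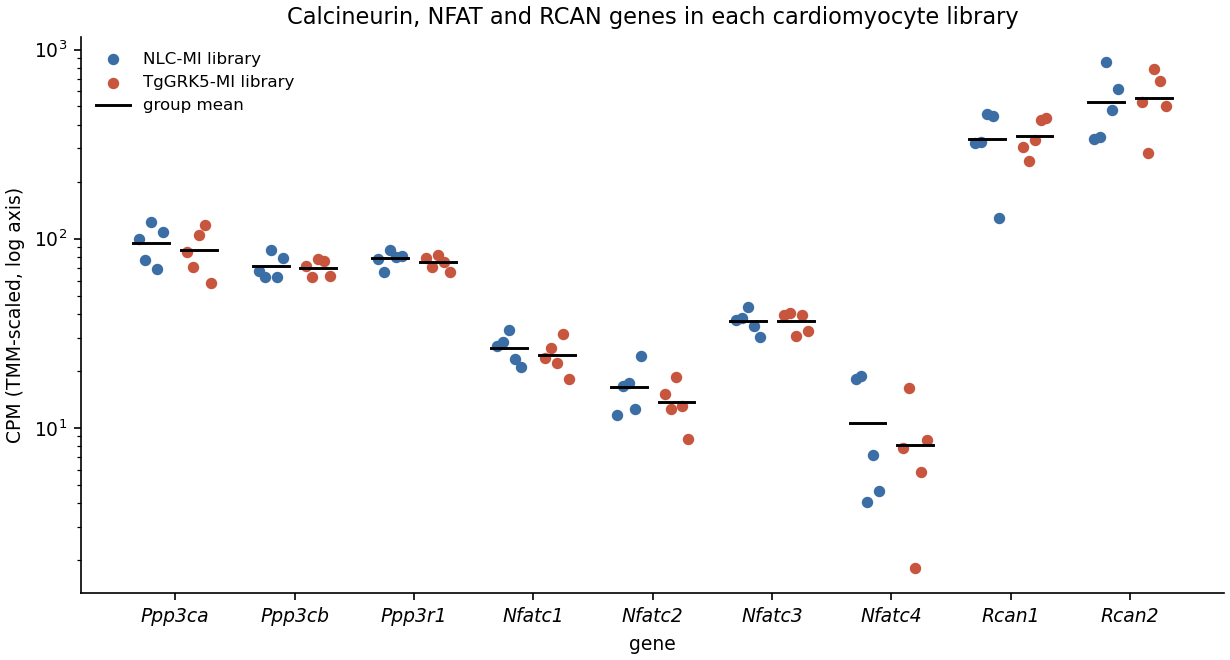
CPM (y axis, log axis) of each of the 9 members (x axis) in every library, NLC-MI beside TgGRK5-MI, 1 point per library with a black bar at each group mean. The points of both groups overlap for each gene, and the spread is widest for Nfatc4, from 1.83 to 18.7 CPM.

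Among the NFAT factors, Nfatc3 and Nfatc1 were steady and Nfatc4 was the most variable member. Nfatc3 (ENSMUSG00000031902, GRCm38 chr8:106058840-106130537, plus strand) was at 37.1, 38.1, 43.7, 34.7 and 30.4 CPM in the NLC-MI libraries and 39.5, 40.6, 30.6, 39.5 and 32.3 CPM in TgGRK5-MI. The means, 36.8 ± 4.88 and 36.5 ± 4.68 CPM, gave a log2 fold change of -0.01 (standard error 0.14, 95% interval -0.32 to 0.30, edgeR unadjusted p = 0.942). This factor has been linked to calcineurin-driven hypertrophy of the heart, and its level in the groups was the closest of the 9. It shares 219 exon bases with Esrp2 on the opposite strand, which the library kit could not separate, but Esrp2 had only 11 to 55 counts per library.

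Nfatc1 (ENSMUSG00000033016, GRCm38 chr18:80606205-80713071, minus strand), known for its part in endocardial and valve development, ranged from 21.1 to 33.0 CPM in the NLC-MI libraries and from 18.1 to 31.5 CPM in TgGRK5-MI. Its means were 26.5 ± 4.64 and 24.3 ± 5.00 CPM, with a log2 fold change of -0.12 (standard error 0.18, 95% interval -0.51 to 0.26). Nfatc2 (ENSMUSG00000027544, GRCm38 chr2:168476410-168601657, minus strand), a factor also prominent in T cells, had the lowest mean level per kb. It was at 11.7, 16.7, 17.3, 12.6 and 24.0 CPM in the NLC-MI libraries and 15.1, 12.6, 18.6, 13.03 and 8.75 CPM in TgGRK5-MI. The extremes were NLC-MI replicate 5 and TgGRK5-MI replicate 5, and the other 8 libraries overlapped. The log2 fold change of -0.27 had a standard error of 0.24 and a 95% interval from -0.80 to 0.26. Markers of T and B lymphocytes summed to 2.09 to 5.73 CPM in the NLC-MI libraries and 2.77 to 6.28 CPM in TgGRK5-MI, and 5 of the 8 were detected in every library. Only 2 of the 8, Cd4 and Cd79a, passed the filter for testing, and Cd4 had means of 2.14 and 1.88 CPM. A sum this low cannot decide whether Nfatc2 follows T cells. Over the 10 libraries the r of Nfatc2 with this sum was -0.354 (permutation p = 0.314, rho = -0.261, permutation p = 0.467). With the cardiomyocyte marker sum the r of Nfatc2 was 0.833 (permutation p = 0.00296, adjusted p = 0.0426 over 72 pairs of member and marker list). The rho was 0.855 (permutation p = 0.0029, adjusted p = 0.0696). The r was 0.911 within NLC-MI, 0.721 within TgGRK5-MI and 0.694 without the 2 libraries farthest from the median. Over the 7 libraries outside the 3 with the highest fibroblast sums it was 0.900 (exact permutation test, p = 0.00635, adjusted p = 0.209). Nfatc2 also ran against sums of other cells. With 3 endocardial markers r was -0.592 over the 10 libraries and -0.863 over the 7. It was -0.643 and -0.764 with the macrophage sum, and -0.623 and -0.628 with 5 neutrophil markers. The adjusted permutation p of these 3 relations was 0.197 or higher in both sets of libraries. The pair with the cardiomyocyte sum was singled out after all 72 were computed.

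Nfatc4 (ENSMUSG00000023411, GRCm38 chr14:55823144-55833943, plus strand) was at 18.1, 18.7, 4.06, 7.23 and 4.65 CPM in the NLC-MI libraries and 7.83, 16.3, 1.83, 5.82 and 8.59 CPM in TgGRK5-MI, or 21 to 462 counts per library. The libraries above 15 CPM were NLC-MI replicates 1 and 2 and TgGRK5-MI replicate 2, so both groups contained high and low libraries. The coefficient of variation was 69.0% in NLC-MI and 65.5% in TgGRK5-MI. The log2 fold change of -0.39 had a standard error of 0.55 (95% interval -1.58 to 0.80, edgeR unadjusted p = 0.492), so a 2-fold decrease was within the interval. Without the 3 libraries with the highest fibroblast sums it was 0.16.

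As shares of the per-kb sum of all 4 factors, Nfatc1 made up 35.4 ± 4.17% in NLC-MI and 36.0 ± 4.68% in TgGRK5-MI, and Nfatc3 31.4 ± 3.63% and 34.6 ± 2.101%. Nfatc2 made up 15.9 ± 6.38% and 14.6 ± 5.06%, and Nfatc4 17.3 ± 10.03% and 14.8 ± 8.28%. The share of Nfatc3 had the lowest p of the 6 shares (exact two-sided permutation test, p = 0.127, adjusted p = 0.762). The sum of the 4 factors was 10.1 ± 1.51 CPM per kb in NLC-MI and 9.04 ± 1.49 CPM per kb in TgGRK5-MI.

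Rcan1 (ENSMUSG00000022951, GRCm38 chr16:92391953-92470867, minus strand) is transcribed from several starts. An upstream and an internal start of RefSeq, the internal one giving the calcineurin-responsive form, are shown because they differ in matches to the NFAT core motif. The 250 bases before each start are from RefSeq (GRCm38.p6) on the minus strand, with GGAAA and its reverse complement TTTCC in capitals. GENCODE also annotates a transcript that starts further upstream, at the end of the gene given above, and its window is not shown.

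Rcan1 upstream start, chr16:92466170-92466419: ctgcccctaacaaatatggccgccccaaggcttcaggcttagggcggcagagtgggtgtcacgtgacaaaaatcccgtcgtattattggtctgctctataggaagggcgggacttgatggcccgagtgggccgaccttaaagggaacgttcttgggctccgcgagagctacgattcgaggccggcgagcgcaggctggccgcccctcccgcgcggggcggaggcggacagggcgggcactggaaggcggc
Rcan1 internal start, chr16:92400079-92400328: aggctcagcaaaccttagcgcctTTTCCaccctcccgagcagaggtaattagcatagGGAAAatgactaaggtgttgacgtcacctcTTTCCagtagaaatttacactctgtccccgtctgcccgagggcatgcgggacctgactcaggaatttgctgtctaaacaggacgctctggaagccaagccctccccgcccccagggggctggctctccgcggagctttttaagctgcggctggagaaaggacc

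The upstream window held 0 matches and the internal window 3. Of 32817 promoter windows of the same length in the RefSeq table, 55.6% held at least 1 match on either strand and 6.38% at least 3. Windows with 3 matches also lay before a start of Nfatc2, Ppp3cb and Nfatc4, while both windows of Rcan1 together with 10 others covered 7 of the members. Member windows on chr18, the chromosome of Nfatc1, were left out of the search, and no usable window was available for Ppp3ca. Matches before the starts of these genes are therefore not known here. A match describes letters only. The deposited counts sum all transcripts of a gene, so the starts of Rcan1 could not be measured separately.

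Rcan1 was at 319.6, 326, 455, 443.7 and 129 CPM in the NLC-MI libraries and 304, 256.5, 334, 425 and 433.6 CPM in TgGRK5-MI. The 5 TgGRK5-MI values lay within the range of the NLC-MI values, and NLC-MI replicate 5 was well below all other libraries. The means were 334.6 ± 131.4 CPM in the NLC-MI libraries and 350.7 ± 76.9 CPM in TgGRK5-MI, with a log2 fold change of 0.07 (standard error 0.30, 95% interval -0.58 to 0.72, edgeR unadjusted p = 0.824). The interval corresponds to a fold of 0.668 to 1.64. The sign was not stable. The log2 fold change was -0.15 without NLC-MI replicate 5, -0.0097 without TgGRK5-MI replicate 4 and -0.0208 without TgGRK5-MI replicate 5. The 5 genes whose log2 CPM followed Rcan1 most closely, after the mean of each group was removed, were Lypd1 (Pearson r = 0.973, n = 10), Nrn1 (0.970), Slc39a13 (0.953), Kdm3a (0.943) and Uck2 (0.942). They were picked as the highest r values of the 15232 genes tested, so high values follow from the choice. Lypd1 was low, at 0.262 to 1.72 CPM. Each of the 5 genes was lowest in NLC-MI replicate 5, as Rcan1 was, and without that library the r values ranged from 0.802 to 0.915.

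Rcan2 (ENSMUSG00000039601, GRCm38 chr17:43801351-44039516, plus strand), the family member that is also responsive to thyroid hormone, had the highest counts of the members. It was at 336, 345, 859, 478 and 616 CPM in the NLC-MI libraries and 528, 282, 785, 681 and 504.5 CPM in TgGRK5-MI. The libraries below 350 CPM were NLC-MI replicates 1 and 2 and TgGRK5-MI replicate 2, the same 3 in which Nfatc4 was above 15 CPM. The means, 526.8 ± 218 and 556 ± 191 CPM, differed by a log2 fold change of 0.08 (standard error 0.32, 95% interval -0.62 to 0.77, edgeR unadjusted p = 0.810), and without these 3 libraries it was -0.07. Rcan1 made up 47.4 ± 15.1% of the per-kb sum of Rcan1 and Rcan2 in NLC-MI and 48.1 ± 7.65% in TgGRK5-MI (exact two-sided permutation test, p = 0.897). The RCAN sum was 13.1 ± 3.68 times the catalytic subunit sum per kb in NLC-MI and 14.5 ± 3.33 times in TgGRK5-MI.

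**Figure D4:**
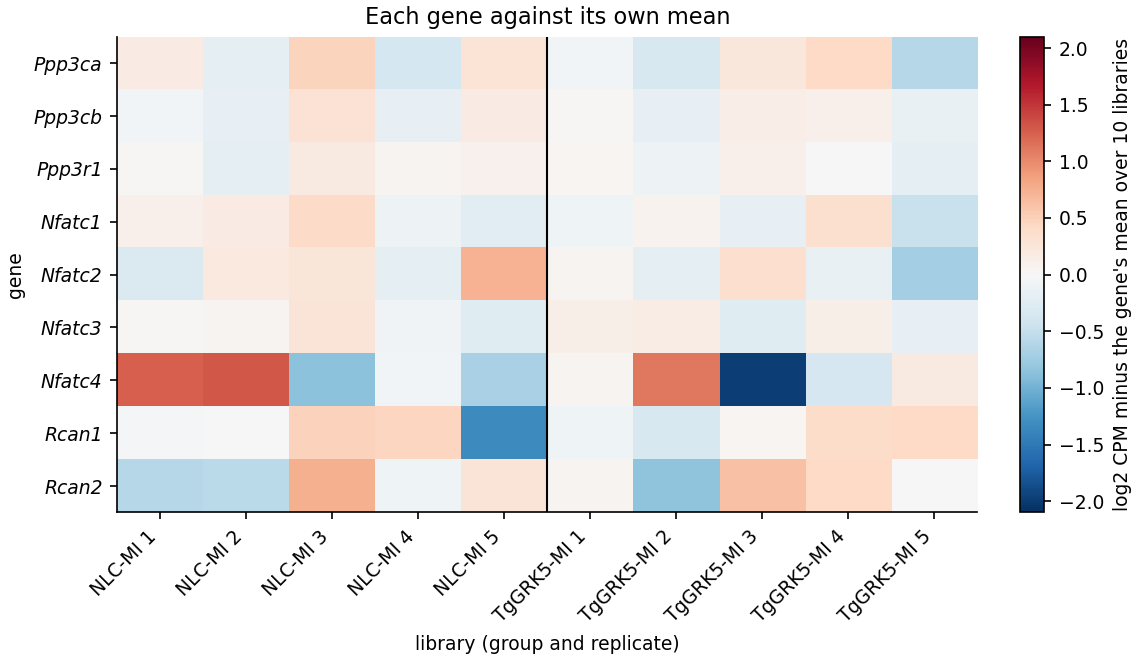
Deviation of log2 CPM of each member (rows) from its mean over all 10 libraries, for each library (columns), on the colour scale given. Nfatc4 is high and Rcan2 low in NLC-MI replicates 1 and 2 and TgGRK5-MI replicate 2, and Rcan1 is low in NLC-MI replicate 5.

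Several members varied together across libraries within each group. Over the 10 libraries, Ppp3ca was high where Ppp3cb was high (Pearson r = 0.883, permutation p = 0.00176, adjusted p = 0.0283 over 36 pairs of members, Spearman rho = 0.842, permutation p = 0.00367). The r was 0.916 within NLC-MI and 0.926 within TgGRK5-MI, and 0.890 without the 2 libraries farthest from the median of Ppp3ca. Nfatc1 and Nfatc3 were also related (r = 0.821, permutation p = 0.00393, adjusted p = 0.0354, rho = 0.830, permutation p = 0.0046), with r = 0.982 within NLC-MI, 0.726 within TgGRK5-MI and 0.757 without the 2 farthest libraries. Ppp3cb was related to Rcan2 (r = 0.851, permutation p = 0.00236, adjusted p = 0.0283, rho = 0.891, permutation p = 0.00119, and r = 0.799 without the 2 farthest libraries) and to Ppp3r1 (r = 0.791, permutation p = 0.00687, adjusted p = 0.0495, rho = 0.758, permutation p = 0.0150, adjusted 0.0771, and r = 0.643 without them). Over the 7 libraries outside the 3 with the highest fibroblast sums, the r was 0.941 for Ppp3ca with Ppp3cb, 0.827 for Nfatc1 with Nfatc3, 0.907 for Ppp3cb with Rcan2 and 0.723 for Ppp3cb with Ppp3r1, with adjusted p of 0.114, 0.167, 0.118 and 0.205 (exact permutation tests), so none passed the adjustment there. These pairs were singled out after all 36 were computed, and the libraries of a pair share their depth and scaling. Marker sums of other cells also ran against some of these members. Over all 10 libraries, r with the sum of 3 endocardial markers was -0.779 for Ppp3cb, -0.689 for Ppp3r1 and -0.906 for Rcan2. It was -0.747, -0.755 and -0.805 with the macrophage sum, and -0.664, -0.584 and -0.862 with the fibroblast sum. With the endothelial sum it was 0.162, 0.00965 and 0.249. The permutation p of Rcan2, adjusted over 72 pairs, was 0.0185 (endocardial), 0.0387 (fibroblast) and 0.0734 (macrophage). That of Ppp3cb and Ppp3r1 was 0.111 or higher. Over the 7 libraries, r with the endocardial sum was -0.748 for Ppp3cb and -0.750 for Ppp3r1, and with the macrophage sum -0.646 and -0.865. It was -0.441 and -0.415 with the fibroblast sum, and 0.115 and -0.0942 with the endothelial sum. None of these values over the 7 libraries passed the adjustment over 72 pairs of member and marker list. The part of cell content in these pairs was not tested.

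Nfatc4 was high and Rcan2 low in the 3 libraries with the highest fibroblast sums, while over the other 7 no relation given here passed the adjustment. In the 3 libraries with sums of 23570 to 24770 CPM, Nfatc4 was at 16.3 to 18.7 CPM and Rcan2 at 282 to 345 CPM. In the other 7, with sums of 4031 to 14150 CPM, Nfatc4 was at 1.83 to 8.59 CPM and Rcan2 at 478 to 859 CPM, with no overlap for either gene. The sums of 3 endocardial markers were also apart, at 73.0 to 79.4 CPM in these 3 libraries and 36.7 to 55.3 CPM in the others. So were the sums of smooth muscle and pericyte markers (967 to 1097 against 524 to 895 CPM). The low lymphocyte sums were apart too (5.71 to 6.28 against 2.09 to 4.31 CPM). The macrophage sums overlapped (1470.0 to 2028 against 572 to 1546 CPM), as did the cardiomyocyte, endothelial and neutrophil sums. A correlation over all 10 libraries also reflects the gap between these 3 and the rest. Over all 10 the r of Nfatc4 with Rcan2 was -0.918 (permutation p = 0.00037, adjusted p = 0.0133 over 36 pairs). It was -0.956 within NLC-MI and -0.891 within TgGRK5-MI. With the fibroblast sum r was 0.914 for Nfatc4 and -0.862 for Rcan2, and with the endocardial sum 0.935 and -0.906. The permutation p of these, adjusted over 72 pairs, was 0.0112, 0.0387, 0.0112 and 0.0185 in that order. Over the other 7, the r of Nfatc4 with Rcan2 was -0.792 (exact permutation test, p = 0.0232, adjusted p = 0.167 over 36 pairs; rho = -0.821, exact p = 0.0341, and r = -0.860 without the 2 farthest libraries). The r with the fibroblast sum was 0.736 for Nfatc4 (exact permutation test, p = 0.0520, adjusted p = 0.454 over 72 pairs of member and marker list; rho = 0.714, exact p = 0.0881) and -0.501 for Rcan2 (exact p = 0.253, adjusted p = 0.637; rho = -0.357, exact p = 0.444). With the endocardial sum it was 0.809 for Nfatc4 (exact permutation test, p = 0.0145, adjusted p = 0.209; rho = 0.786, exact p = 0.0480) and -0.695 for Rcan2 (exact p = 0.0911, adjusted p = 0.547; rho = -0.429, exact p = 0.354). With the macrophage sum it was 0.362 for Nfatc4 (exact permutation test, p = 0.432; rho = 0.714, exact p = 0.0881) and -0.474 for Rcan2 (exact p = 0.280; rho = -0.464, exact p = 0.302). With the smooth muscle and pericyte sum it was 0.260 for Nfatc4 and 0.314 for Rcan2, and with the lymphocyte sum -0.319 and 0.488. None of these relations passed the adjustment over the 7 libraries. With the fibroblast sum as a covariate in the edgeR fit, the log2 fold change was -0.37 for Nfatc4 and 0.11 for Rcan2, and 0 of 9 members had an unadjusted p under 0.05. The part of marker sums other than the fibroblast sum in the group comparison was not tested.

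**Figure D5:**
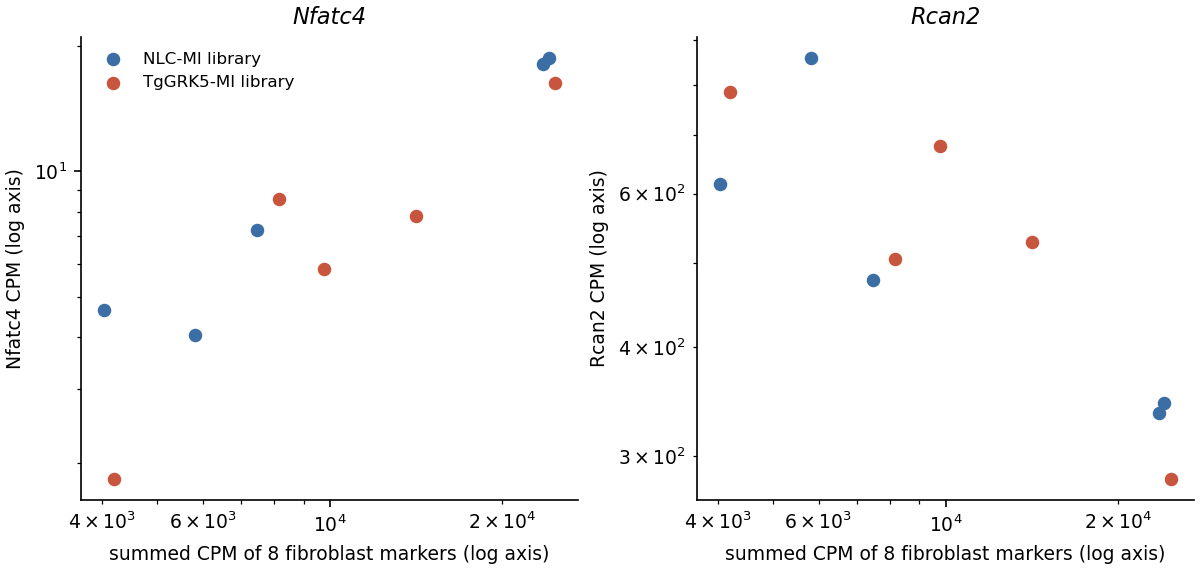
CPM of Nfatc4 and of Rcan2 (y axes, log) against the sum of 8 fibroblast markers (x axis, CPM, log) in the 10 libraries, coloured by group. The 3 libraries on the right, from both groups, hold the highest Nfatc4 and the lowest Rcan2 levels.

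The genes around calcineurin and NFAT were described from 5 lists. Of the 19 tested relatives and regulators of calcineurin, 1 was higher and 0 lower at an edgeR unadjusted p under 0.05 (5.26%, beside 3.85% of all genes), and the median log2 fold change was 0.05. The gene was Bcl2, an apoptosis inhibitor that binds calcineurin, at 12.2 ± 2.62 CPM in the NLC-MI libraries and 17.3 ± 3.30 CPM in TgGRK5-MI (log2 fold change 0.51, standard error 0.20, edgeR unadjusted p = 0.0257, adjusted p = 1). Without NLC-MI replicate 2 or 5 or TgGRK5-MI replicate 1 or 3 its unadjusted p in edgeR was 0.0549 to 0.0690. The remaining catalytic subunit, Ppp3cc, was at 35.0 ± 9.84 and 43.5 ± 11.1 CPM (log2 fold change 0.31, standard error 0.22, edgeR unadjusted p = 0.188). Of the 15 kinases that act on NFAT, 0 had an unadjusted p under 0.05 in edgeR, and the median log2 fold change was -0.07. Neither did any of the 22 hypertrophy and NFAT-responsive genes, 7 with positive and 15 with negative log2 fold changes and a median of -0.07.

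Among 18 tested genes of calcium entry and release, 0 were higher and 2 lower at an edgeR unadjusted p under 0.05 (11.1%, beside 3.85% of all genes, and 2.08% lower), and 16 of 18 log2 fold changes were negative (median -0.17). Cacna1c, the pore subunit of the L-type calcium channel, was at 210.4 ± 74.1 CPM in the NLC-MI libraries and 123.4 ± 28.1 CPM in TgGRK5-MI (log2 fold change -0.77, standard error 0.26, edgeR unadjusted p = 0.0122, adjusted p = 1), with an unadjusted p of 0.0527 in limma-voom. Cacna1h, a pore subunit of T-type channels, was at 5.07 ± 1.10 and 2.79 ± 0.566 CPM (log2 fold change -0.86, standard error 0.22, edgeR unadjusted p = 0.00223, adjusted p = 0.548). Its groups did not overlap, as was the case for 1.0% of the genes tested. Ryr2, the calcium release channel, came from the 8 cardiomyocyte markers and not from this list. It was at 1489 ± 538 CPM in the NLC-MI libraries and 783 ± 184 CPM in TgGRK5-MI (log2 fold change -0.93, edgeR unadjusted p = 0.00903, adjusted p = 0.968). Of these 8 markers, 0 were higher and 1, Ryr2, lower at an edgeR unadjusted p under 0.05 (12.5%, beside 3.85% of all genes). Their log2 fold changes were positive for 2 and negative for 6. Cacna1c, Cacna1h and Ryr2 all failed edgeR's adjustment over all genes.

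Of the 5 lists, the nuclear partners of NFAT had the largest share of genes under the unadjusted threshold. This list, like the others, was written with earlier results of these data known. Of 14 tested, 0 were higher and 3 lower at an edgeR unadjusted p under 0.05 (21.4%, beside 3.85% of all genes, and 2.08% lower), and all 14 had negative log2 fold changes with a median of -0.24. The 3 were AP-1 components of the immediate early class. Fos was at 190.8 ± 107 CPM in the NLC-MI libraries and 75.3 ± 9.67 CPM in TgGRK5-MI, with groups that did not overlap (log2 fold change -1.34, standard error 0.33, edgeR unadjusted p = 0.00177, adjusted p = 0.501). Groups that did not overlap were found for 1.0% of the genes tested, and those of Fos nearly touched. The lowest NLC-MI library was at 85.96 CPM and the highest TgGRK5-MI library at 84.83 CPM. The log2 fold change of Fos was -1.07 without NLC-MI replicate 3 and -0.87 in limma-voom. Junb was at 190.2 ± 47.8 and 113.4 ± 30.1 CPM (log2 fold change -0.75, standard error 0.21, edgeR unadjusted p = 0.00436, adjusted p = 0.770). Jun was at 267.6 ± 159 and 137.3 ± 57.1 CPM (log2 fold change -0.96, standard error 0.38, edgeR unadjusted p = 0.0282, adjusted p = 1), and its groups overlapped. Without NLC-MI replicate 3 it was -0.62 (edgeR unadjusted p = 0.0982). Leaving out NLC-MI replicate 5 or TgGRK5-MI replicate 1, 2, 4 or 5 gave edgeR unadjusted p-values of 0.0581 to 0.0653. In limma-voom the log2 fold change of Jun was -0.57 (limma-voom unadjusted p = 0.0685). By the adjusted threshold 0 genes of the 5 lists were called in edgeR, while DESeq2 called Fos (adjusted p = 0.0348) and Cacna1h (adjusted p = 0.0852).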

How the data were processed

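Cardiomyocyte RNA of day 4 after MI was sequenced from 5 NLC-MI and 5 TgGRK5-MI mice with the TruSeq RNA v2 kit, which does not mark strand. The authors deposited whole-number counts per Ensembl gene, without normalization. The submitters' processing notes name Bowtie2, RSEM 1.2.31, DESeq2 and mm10 with no role or order. RSEM gives estimated counts, so the whole numbers may be rounded estimates. The annotation version and strand setting are not given in the sources used here.

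Symbols, positions and exon lengths were from GENCODE M21 (51596 of 51789 identifiers), and promoter windows and their starts from RefSeq. Counts were compared in R 4.3.3 with edgeR 4.0.16 (TMM, filterByExpr by group, quasi-likelihood F test with legacy=FALSE and robust=FALSE) and Benjamini-Hochberg adjustment over 15232 genes, at the 10% false discovery rate of the study. Exact tests and correlations (log2 CPM, prior count 2, 100000 permutations for 10 libraries, all orders for 7) used Python 3.11.15 with SciPy 1.17.1. The edgeR fit was tested on simulated data with known changes. P-values set a group difference, or a correlation, against the variation between these libraries.

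Alternatives were RLE factors, library size alone, DESeq2 1.42.0, limma-voom (limma 3.58.1) with sample quality weights, robust and legacy fits, a minimum of 10 counts in every library, no filter, a replicate block, the log2 Xist minus Y-linked level as a covariate (planned for sex, in which the libraries did not divide), a prior count of 0.5, and each library left out. The fibroblast sum as a covariate, the exclusion of the 3 libraries with the highest sums and the correlations were chosen after seeing the data.

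The members and lists were chosen with earlier results of these data known. Named genes were the members, Grk5, list and marker genes with an adjusted p under 0.10 or among the 4 smallest unadjusted p under 0.05 in a list, and the 5 genes most like Rcan1. Wdr92 and Esrp2 were named for shared exons, and Ppp3cc as the remaining catalytic subunit.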

Additional observations from a re-analysis of the deposited data

Results flagged for a closer look

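The level of Rcan1 in NLC-MI replicate 5 lay far from the other 4 libraries of its group. It was 7.01 on the log2 CPM scale against 8.32 to 8.83 in the others, and the gap to the nearest was 0.72 of the range of the group. Of 48 groups of 5 values examined in this way 1 stood out, where chance alone would give about 1 in 20, or 2.4. The log2 fold change of Rcan1 without this library was -0.15.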

How the results depend on the processing

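No member had an unadjusted p under 0.05 or an adjusted p under 0.10 under any alternative run, and no share passed its threshold. The median log2 fold change of the members, -0.07, was -0.08 with RLE factors, -0.02 with limma-voom and 0.06 with the Xist and Y-linked covariate, and from -0.10 to -0.02 when 1 library was left out. Signs of small differences turned. With limma-voom the log2 fold changes were 0.0571 for Ppp3cb and 0.00741 for Ppp3r1, with the Xist and Y-linked covariate 0.0656 for Nfatc3, 0.0568 for Ppp3cb and 0.0961 for Ppp3r1, and without the 3 libraries with the highest fibroblast sums 0.16 for Nfatc4 and -0.0727 for Rcan2. Leaving out 1 library gave -0.0789 to 0.0582 for Nfatc3, -0.0790 to 0.0482 for Ppp3cb, -0.15 to 0.20 for Rcan1 and -0.0898 to 0.33 for Rcan2. The sign stayed for Nfatc4 (-0.81 without TgGRK5-MI replicate 2 to -0.0807 without NLC-MI replicate 2), Nfatc2 (-0.42 to -0.0999), Nfatc1 (-0.23 to -0.0345) and Ppp3ca (-0.26 to -0.00820), but their sizes moved by over 1.5 times. The same step moved the difference in share (TgGRK5-MI minus NLC-MI, percentage points) from -1.08 to 2.35 for Nfatc1, -3.48 to 1.33 for Nfatc2, -5.11 to 0.320 for Nfatc4 and -5.44 to 3.33 for Rcan1. The cause was not tested. The Xist and Y-linked score was -7.58 to -6.78 in all 10 libraries, so they did not divide by sex. Y-linked RNA was above Xist in each library, the pattern of male mice. Of the 5 NLC-MI scores, 4 lay above all TgGRK5-MI scores. Fits with this covariate therefore do not adjust for sex and the covariate runs with the group. They gave 0.53 for Rcan1, 0.48 for Rcan2 and -0.93 for Nfatc4. Cacna1c (-0.81, edgeR unadjusted p = 0.0693), Ryr2 (-0.78, edgeR unadjusted p = 0.117) and Jun (-0.56, edgeR unadjusted p = 0.348) were no longer under an unadjusted p of 0.05 in these fits.

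Counts over all genes depended more on the method. The 12 genes at an adjusted p under 0.10 in edgeR became 69 with DESeq2, 50 with limma-voom, 7 with the legacy fit, 8 with at least 10 counts in every library, 18 with library size alone or with no filter, 2 with the Xist and Y-linked covariate, 28 with the fibroblast covariate, 1 without the 3 libraries, and 3 to 10 with 1 library left out (3 without NLC-MI replicate 1 or 2). The 586 genes at an unadjusted p under 0.05 became 1810 with limma-voom, 1163 with no filter, 1020 with the fibroblast covariate, and 457 to 1069 with 1 library left out (1069 without NLC-MI replicate 3). Of the genes in the 5 pathway lists, 6 had an unadjusted p under 0.05, against 13 with limma-voom and 4 to 9 with 1 library left out. With DESeq2, Cacna1h (adjusted p = 0.0852, 0.0852 to 1 over all alternatives) and Fos (adjusted p = 0.0348, 0.0348 to 1) passed the adjusted threshold. Same-numbered libraries of the groups did not deviate together (correlations from -0.341 to 0.662 over 5 numbers, and 1 library correlated best with its own number). The replicate block gave 8 genes at an adjusted p under 0.10 and 0 members. How far depth limits Nfatc4, with 21 to 462 counts per library, was not tested.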

Other observations

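Some genes of the calcineurin pathway outside the 9 members are given here. They were chosen by role from the pathway lists, after their values were seen. Myoz2, a Z-disc protein that binds calcineurin, was at 971 ± 358 CPM (SD, n = 5) in the NLC-MI libraries and 1329 ± 452 CPM in the TgGRK5-MI libraries (log2 fold change 0.45, standard error 0.31, edgeR unadjusted p = 0.169). The export kinases Gsk3b (81.0 ± 27.7 and 75.3 ± 28.2 CPM) and Dyrk1a (68.6 ± 15.3 and 65.3 ± 18.9 CPM) had log2 fold changes of -0.10 and -0.07.

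Of the hypertrophy genes, Myh7, the slow myosin heavy chain of the fetal heart programme, was at 654 ± 421 CPM in the NLC-MI libraries and 1094 ± 97.0 CPM in TgGRK5-MI (log2 fold change 0.74, standard error 0.38, edgeR unadjusted p = 0.0728, adjusted p = 1). The natriuretic peptide genes were at 2395 ± 1091 and 2330 ± 1113 CPM for Nppa (log2 fold change -0.04, standard error 0.44) and at 722 ± 218 and 940.1 ± 269 CPM for Nppb (log2 fold change 0.38, standard error 0.26).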
